A study of Oryza sativa with 8 samples.

Results

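The genes described here are the terpene synthases of rice and the other enzymes of terpenoid metabolism, in whole seedlings with and without the nitroaromatic compound 2-nitroaniline. They were chosen by annotation and level. A gene was taken if it carried a terpene synthase domain (the N-terminal or the metal-binding Pfam domain) or lay on the KEGG maps for the terpenoid backbone, monoterpenoids, diterpenoids or sesquiterpenoids and triterpenoids. It also had to reach 1 TPM (a transcript level per length, scaled to a fixed total per library) in at least 2 of the 8 libraries. Of 57403 genes in the expression matrix, 184 met the annotation and 120 of these met the level, while 64 did not. The 120 fall into 58 genes of backbone supply and prenyl chain use, 18 terpene synthases and 44 enzymes that act later. The second-highest library of the genes closest to the threshold read 0.75 TPM (LOC_Os02g26014), 0.85 TPM (LOC_Os01g14630) and 0.87 TPM (LOC_Os05g48700) outside it. Just inside it were 1.06 TPM (LOC_Os08g07100), 1.08 TPM (LOC_Os05g50170) and 1.22 TPM (LOC_Os05g43880 and LOC_Os02g48330).

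Terpenoids are built from isopentenyl diphosphate and its isomer dimethylallyl diphosphate, which plants make by the mevalonate pathway outside the plastid and by the methylerythritol phosphate (MEP) pathway inside it. Prenyl diphosphate synthases join these units into geranyl, farnesyl, geranylgeranyl and longer chains, and terpene synthases cyclise or rearrange the chains into volatile mono- and sesquiterpenes or into diterpenes. In rice, copalyl diphosphate synthases and kaurene synthase-like enzymes lead both to the gibberellin hormones and to antimicrobial diterpenoid phytoalexins such as momilactones and phytocassanes, whose genes lie in clusters on chromosomes 2 and 4.

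RNA was sequenced from 4 groups of 2 libraries. OE1 treated and OE1 untreated came from a line whose labels give overexpression of ScOYE3, a flavin-dependent reductase of baker's yeast from the old yellow enzyme family. ZH11 treated and ZH11 untreated came from the wild-type japonica cultivar ZH11. All plants were hydroponic seedlings 2 weeks old, the treated ones had received 0.8 mM 2-nitroaniline for 8 h, and each library pooled 20 whole plants. The labels name no promoter for the transgene and describe only this line. Nothing in them tells if both pools of a group were grown apart, so that a p-value here reflects the spread of these samples alone, and that spread may be technical. The pools mixed shoot and root, and fewer cells of a type and less RNA per cell cannot be told apart in them.

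Per library 42.1 M to 56.5 M reads went into the authors' alignment. Mean read length was 149.1 nt in ZH11 treated replicate 2, 149.8 nt in ZH11 untreated replicate 2 and 145.0 to 146.8 nt elsewhere. A read-length term in some fits below sets these ZH11 libraries apart, so it is partly tied to genotype. ZH11 treated replicate 2 stood apart from the other 7 libraries. It deviated from the 8-library mean by a median log2 value of -0.40 among short genes (at most 500 nt). Among long ones (beyond 5000 nt) its deviation was 0.91. OE1 treated replicate 2 lay the other way among long genes, by -0.52, and the rest lay between -0.19 and 0.08. Over the terpene synthases the deviation was lowest in OE1 treated replicate 2 (-0.31), and the rest lay between -0.16 and 0.26. The median absolute log2 difference between the 2 replicates, over the members, was 0.12 in OE1 treated, 0.10 in OE1 untreated, 0.29 in ZH11 treated and 0.18 in ZH11 untreated. Shoot markers (30 chlorophyll-binding and Rubisco small subunit genes) summed to 51400 and 51926 TPM in OE1 treated, 64104 and 62631 TPM in OE1 untreated, 55744 and 48181 TPM in ZH11 treated and 64621 and 64483 TPM in ZH11 untreated. Root markers (5 detected silicon and manganese transporter matches) summed to 565 and 534, 625 and 641, 529 and 745, and 526 and 538 TPM in the same groups, so both organs were represented in every library. The largest part of the root sum was LOC_Os03g05390, with 369 and 357 TPM in OE1 treated and 333 and 349 TPM in OE1 untreated. It was the 1 root marker higher without overlap for treatment in OE1, while 3 of 5 were lower (23.8% and 28.6% of all genes). Of these 3, LOC_Os03g01700 had 107 and 98.3 TPM in OE1 treated and 191 and 188 TPM in OE1 untreated. The manganese transporter match LOC_Os07g15370 had 15.2 and 13.8 TPM in OE1 treated and 27.2 and 27.4 TPM in OE1 untreated. LOC_Os02g57620 had 38.0 and 34.7 TPM in OE1 treated and 40.5 and 42.2 TPM in OE1 untreated. The shoot sum was lower in all treated libraries than in all untreated ones. The part of either organ in the results below was not tested.

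Fold changes are on the log2(TPM + 1) scale, which understates changes at low TPM, and each stands with its standard error from limma (n = 2 libraries per group). Calls needed an adjusted p below 0.05 (Benjamini-Hochberg, over the 25281 genes tested) together with a log2 fold of 1 or more in size. Only 3 of the 120 members were called anywhere. These are the terpene synthases LOC_Os04g27670 and LOC_Os08g04500, lower in untreated OE1 than in untreated ZH11, and LOC_Os09g15050, a match to a diterpene synthase without its domain, lower in treated OE1 than in treated ZH11. The 2 calls in untreated plants stand beside 0.443% of all genes called in that comparison, and the 1 call in treated plants beside 0.953%. By limma, 0 of 120 members were called for treatment in OE1, where 0.241% of all genes were, 0 for treatment in ZH11, where 0.289% were, and 0 for the difference between the treatment effects, where 0.0316% were. At an unadjusted p under 0.05, 24 members passed for OE1 treatment, where 9.44% of all genes did. For ZH11 treatment 32 passed (12.7% of all genes), for OE1 over ZH11 under treatment 24 (15.1%), in untreated plants 13 (4.94%) and for the difference 16 (6.45%).

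The members lay lower more often than higher. Counting genes whose libraries did not overlap between groups, 54 were lower and 27 higher for treatment in OE1, against 28.6% and 23.8% of all genes tested. For treatment in ZH11, 36 were lower and 14 higher (18.4% and 15.9% of all genes). For OE1 over ZH11 under treatment, 34 were lower and 25 higher (19.3% and 23% of all genes), and in untreated plants 42 were lower and 20 higher (19.6% and 21.7% of all genes). The median log2 fold of the 120 was -0.09 for treatment in OE1, -0.11 for treatment in ZH11, -0.01 for OE1 over ZH11 under treatment and -0.08 in untreated plants, against -0.04, 0.02, -0.03 and 0.01 over all genes tested.

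**Figure D1:**
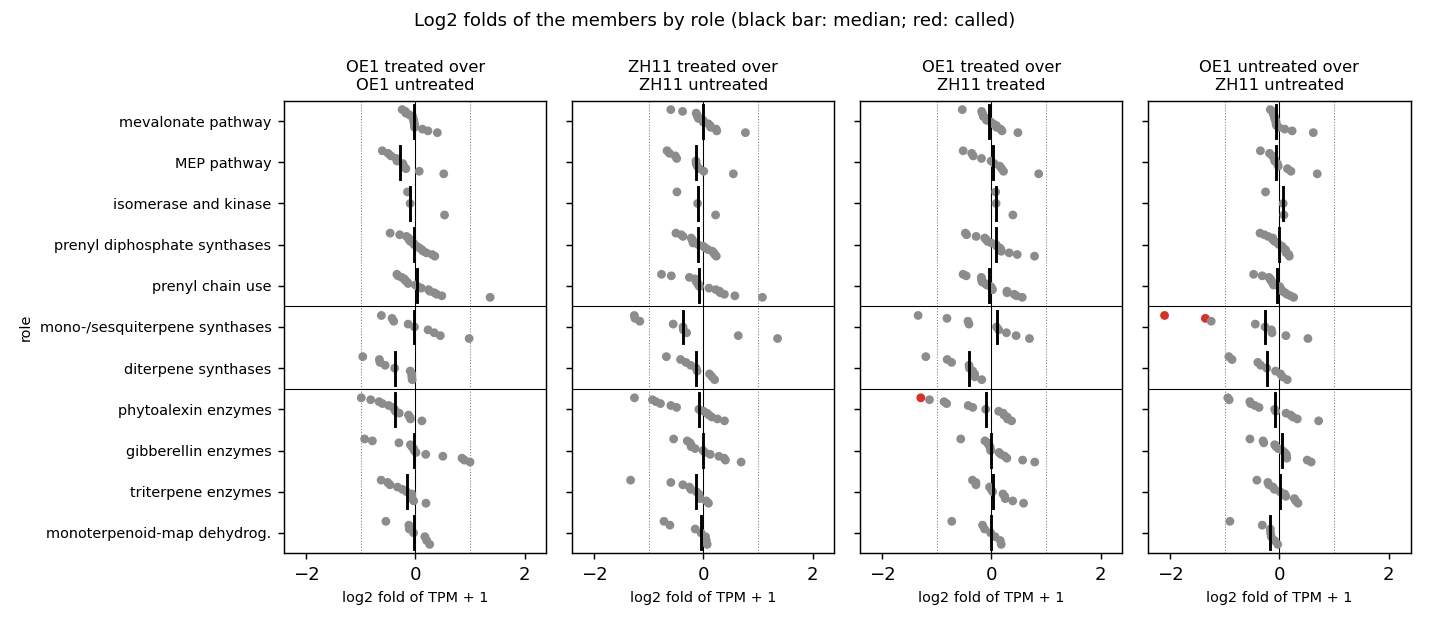
Log2 folds of all 120 members by role (rows) in the 4 comparisons (panels), with 1 point per gene, a black bar at the median of the role, red points for called genes and dotted lines at folds of -1 and 1. The red points are the 2 mono- or sesquiterpene synthases at -2.10 and -1.35 in untreated plants and 1 phytoalexin-type gene at -1.29 in treated plants; the backbone roles above the first line lie mostly within -1 and 1.

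Terpene synthases were the least often detected of the 3 groups. Of 56 genes with a terpene synthase domain, 38 missed the level and 16 were listed at 0 in all 8 libraries. A block of 14 terpene synthase loci on chromosome 4, from LOC_Os04g26960 to LOC_Os04g27790, held 3 detected genes, LOC_Os04g27190, LOC_Os04g27430 and LOC_Os04g27670. The loci of this block are close relatives, and how the counting step divided reads among them is not given in the sources used here, so their levels are uncertain to that extent. By best Swiss-Prot match, 9 of the 18 detected genes are of the mono- or sesquiterpene type and 9 of the diterpene type. All chromosome positions here are read from the locus identifiers.

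LOC_Os04g27670 gave the largest fold of any member. Its best match is tau-cadinol synthase of maize, which makes a sesquiterpene alcohol from farnesyl diphosphate. It had 10.7 and 9.45 TPM in OE1 treated, 4.25 and 4.95 TPM in OE1 untreated, 7.55 and 10.9 TPM in ZH11 treated and 22.4 and 23.6 TPM in ZH11 untreated. Both untreated OE1 libraries lay below all others, and both untreated ZH11 libraries above all others. Untreated OE1 was lower than untreated ZH11 by a called log2 fold of -2.10 ± 0.20 (limma adjusted p = 0.00602). The call was lost when any of these 4 libraries was left out, with limma adjusted p = 0.0855 and 0.12 without an OE1 untreated library and 0.0797 and 0.107 without a ZH11 untreated library, and it held in the other 15 of 19 alternative analyses. Under treatment the genotypes overlapped, with a log2 fold of 0.13 ± 0.20 for OE1 over ZH11 (limma adjusted p = 0.715).

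The treated and untreated libraries of LOC_Os04g27670 differed in opposite directions in the genotypes. The log2 fold for treatment was 0.98 ± 0.20 in OE1 (limma adjusted p = 0.127) and -1.25 ± 0.20 in ZH11 (limma adjusted p = 0.0708). The difference of these effects was 2.24 ± 0.28 (limma adjusted p = 0.13), which was not called. Without ZH11 treated replicate 2 the difference was 2.47 ± 0.21 and passed (limma adjusted p = 0.0175, with a range of 0.00536 to 0.959 over all alternatives). The authors' deposited table lists this gene as up in OE1 treatment (log2 fold 1.17), down in ZH11 treatment (-1.38) and down in untreated OE1 over untreated ZH11 (-2.34).

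LOC_Os08g04500 matches (E)-beta-caryophyllene synthase of maize, an enzyme whose volatile product is known in maize as a signal to enemies of herbivores. It had 0.95 and 0.84 TPM in OE1 treated, 1.98 and 1.85 TPM in OE1 untreated, 2.01 and 2.68 TPM in ZH11 treated and 6.30 and 6.61 TPM in ZH11 untreated. Treated libraries were below untreated ones in each genotype, and OE1 below ZH11 in each condition, with no overlap. Untreated OE1 was lower than untreated ZH11 by a called log2 fold of -1.35 ± 0.20 (limma adjusted p = 0.0484). The authors' deposited table lists LOC_Os08g04500 as down there too (-1.77). The other differences were not called, with log2 folds of -0.62 ± 0.20 for treatment in OE1, -1.16 ± 0.20 for treatment in ZH11 and -0.81 ± 0.20 for OE1 over ZH11 under treatment. The ZH11 treatment fold passed in 4 of 19 alternative analyses, and it was -1.31 without ZH11 treated replicate 2. The call was lost in 13 of 19 alternative analyses, among them the omission of either OE1 treated library (limma adjusted p = 0.152 and 0.149), either OE1 untreated library (0.502 and 0.573) or either ZH11 untreated library (0.219 and 0.376).

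**Figure D2:**
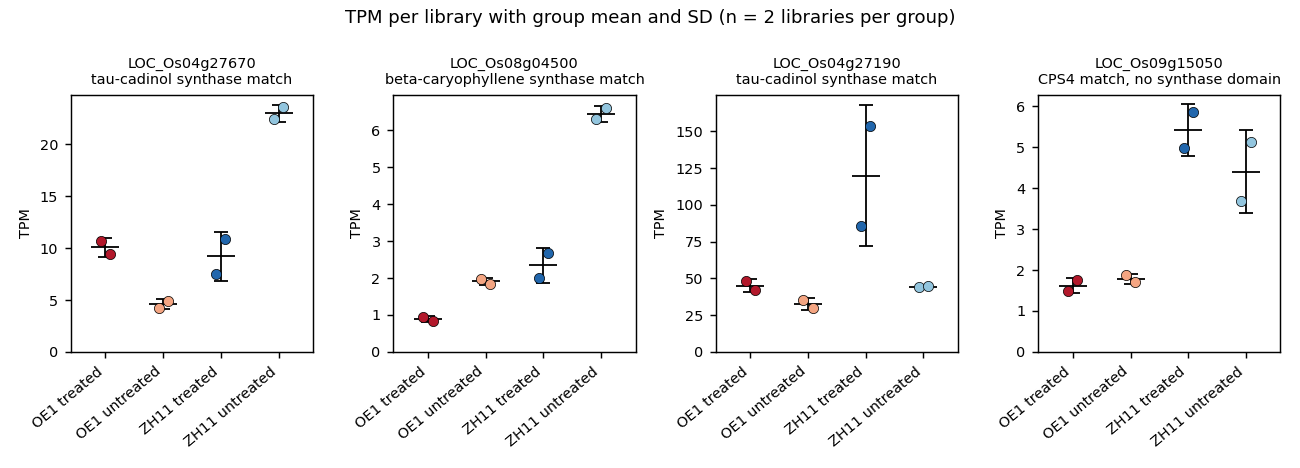
TPM per library (points) with the group mean and SD (bars, n = 2 libraries per group) for 4 genes, on linear axes that start at 0. LOC_Os04g27670 is lowest in untreated OE1 (4.25 and 4.95 TPM) and highest in untreated ZH11 (22.4 and 23.6 TPM), while the treated groups lie between them; LOC_Os04g27190 shows the wide spread of ZH11 treated (85.9 and 154 TPM).

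The most abundant terpene synthases were LOC_Os04g27190 and LOC_Os03g22620, which also match tau-cadinol synthase of maize. LOC_Os04g27190 had 48.0 and 41.8 TPM in OE1 treated, 35.2 and 29.8 TPM in OE1 untreated, 85.9 and 154 TPM in ZH11 treated and 43.9 and 44.7 TPM in ZH11 untreated. Treated libraries were above untreated ones in both genotypes without overlap, and the ZH11 treated libraries, the highest, differed from each other most. The log2 fold for treatment was 0.46 ± 0.26 in OE1 (limma adjusted p = 0.741) and 1.36 ± 0.26 in ZH11 (limma adjusted p = 0.116), and OE1 over ZH11 under treatment was -1.34 ± 0.26 (limma adjusted p = 0.0773). Without ZH11 treated replicate 2 the ZH11 treatment fold was 0.94, and without ZH11 treated replicate 1 it was 1.77 with limma adjusted p = 0.000876, in a range of 0.000876 to 0.867 over all alternatives. The authors' deposited table lists this gene as up in ZH11 treatment (1.38) and down in treated OE1 over treated ZH11 (-1.38).

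LOC_Os03g22620 had 50.1 and 41.4 TPM in OE1 treated, 34.7 and 36.6 TPM in OE1 untreated, 49.1 and 77.2 TPM in ZH11 treated and 38.8 and 39.6 TPM in ZH11 untreated. Its treated libraries were above the untreated ones in both genotypes, with uncalled log2 folds of 0.34 ± 0.22 in OE1 and 0.64 ± 0.22 in ZH11, the second being 0.32 without ZH11 treated replicate 2. Together these genes held 59.95% and 60.4% of all terpene synthase TPM in OE1 treated, 49.8% and 46.5% in OE1 untreated, 68.5% and 71.5% in ZH11 treated and 44.7% and 42.1% in ZH11 untreated. They were thus the larger part of the terpene synthase transcripts in every treated library and in no untreated one.

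The remaining mono- and sesquiterpene synthase genes did not exceed 5 TPM in any library. LOC_Os04g01810, a match to germacrene D synthase of grapevine, had 0.50 and 0.46 TPM in OE1 treated, 0.94 and 1.04 TPM in OE1 untreated, 2.07 and 0.26 TPM in ZH11 treated and 3.23 and 4.28 TPM in ZH11 untreated. Its log2 fold was -1.25 ± 0.40 for untreated OE1 over untreated ZH11 and -1.26 ± 0.40 for treatment in ZH11, neither called, and the ZH11 treated replicates disagreed most. The ZH11 treatment fold was -0.62 without ZH11 treated replicate 2. The authors' deposited table lists it as down in untreated OE1 over untreated ZH11 (-1.93). LOC_Os04g27430 (alpha-copaene synthase match), LOC_Os10g34790 (linalool synthase match), LOC_Os03g31430 and LOC_Os08g07100 (zingiberene synthase match) had no fold beyond 0.70 in size.

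Of the 9 diterpene synthases, 3 reached a group mean of 5 TPM. LOC_Os04g09900 matches CPS4, the syn-copalyl diphosphate synthase that starts momilactone synthesis. It had 14.9 and 11.5 TPM in OE1 treated, 15.9 and 18.9 TPM in OE1 untreated, 12.02 and 22.3 TPM in ZH11 treated and 19.3 and 25.6 TPM in ZH11 untreated. Its groups overlapped for treatment in ZH11 but not in OE1, where the log2 fold was -0.38 ± 0.30. LOC_Os11g28530, matched to the stemarene synthase KSL8, had 14.8 and 10.8 TPM in OE1 treated, 18.5 and 19.6 TPM in OE1 untreated, 10.6 and 19.5 TPM in ZH11 treated and 17.7 and 18.9 TPM in ZH11 untreated. LOC_Os04g52230, matched to KS1, the kaurene synthase of gibberellin synthesis, had 8.84 and 7.34 TPM in OE1 treated, 8.37 and 8.58 TPM in OE1 untreated, 8.91 and 13.6 TPM in ZH11 treated and 9.55 and 10.8 TPM in ZH11 untreated.

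None of the 9 diterpene synthases was called by limma. An unadjusted p under 0.05 was reached by 3 for treatment in OE1 (9.44% of all genes), 1 for treatment in ZH11 (12.7%), 3 for OE1 over ZH11 under treatment (15.1%) and 2 in untreated plants (4.94%). All 9 log2 folds were negative for treatment in OE1, from -0.96 to -0.06, with 7 of 9 lower without overlap, and all 9 were negative for OE1 over ZH11 under treatment, from -1.20 to -0.18, with 6 of 9 lower without overlap (28.6% and 19.3% of all genes). Those comparisons share the OE1 treated libraries, and without ZH11 treated replicate 2 the second had 6 negative and 3 positive folds. In ZH11 the treatment folds ran from -0.68 to 0.21, with 1 lower without overlap. In untreated plants the folds of OE1 over ZH11 ran from -0.93 to 0.14, with a median of -0.23. There, too, 6 of 9 were lower without overlap, and 1 was higher (19.6% and 21.7% of all genes). LOC_Os12g30824, matched to the sandaracopimaradiene synthase KSL10, was below 0.5 TPM in every OE1 library (0.33 to 0.43 TPM) and above 1 TPM in every ZH11 library (1.03 to 1.89 TPM). Its log2 folds were -0.73 ± 0.24 for OE1 over ZH11 under treatment and -0.87 ± 0.24 in untreated plants, neither called. It was the only member with no OE1 library at 1 TPM, so it met the level through ZH11 alone and its place below ZH11 in the counts here is set by that rule. The authors' deposited table lists it as down in untreated OE1 over untreated ZH11 (LOC_Os12g30824, -1.93).

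Over all 18 terpene synthases, 11 were lower without overlap of the libraries and 2 higher in untreated OE1 than in untreated ZH11 (19.6% and 21.7% of all genes tested). Called lower there were 2 of 18, where 0.0475% of all genes tested were. The 11 include LOC_Os12g30824, which met the level through ZH11 alone, as do the 8 lower under treatment given below. For treatment in OE1, 10 were lower and 4 higher (28.6% and 23.8% of all genes), for treatment in ZH11 7 lower and 2 higher (18.4% and 15.9%), and for OE1 over ZH11 under treatment 8 lower and 3 higher (19.3% and 23%). The median log2 fold of the 18 was -0.11 for treatment in OE1, -0.31 for treatment in ZH11, -0.37 for OE1 over ZH11 under treatment and -0.25 in untreated plants. The size of these medians shifted with single libraries and with the processing. For treatment in OE1 the median was -0.25 without OE1 treated replicate 1, -0.19 without OE1 treated replicate 2 and -0.19 without OE1 untreated replicate 1. For treatment in ZH11 it was -0.14 without ZH11 treated replicate 1 and -0.20 without ZH11 untreated replicate 2. For OE1 over ZH11 under treatment it was -0.64 without ZH11 treated replicate 1, -0.12 without ZH11 treated replicate 2, -0.25 with a term for read length and -0.05 with the gradient of level with gene length removed from each library. In untreated plants it was -0.16 without ZH11 untreated replicate 2, -0.17 without OE1 untreated replicate 1 and -0.08 with the read-length term. All these medians stayed negative.

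**Figure D3:**
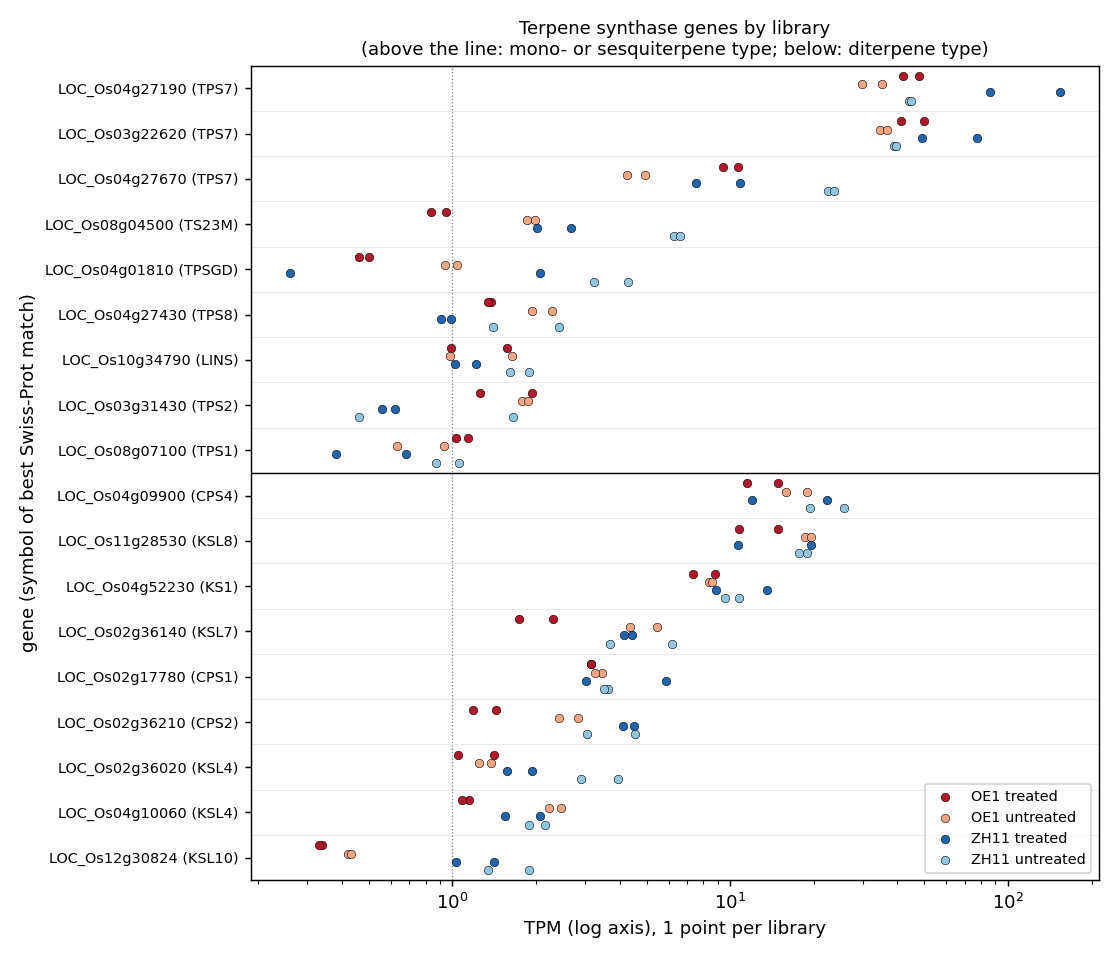
TPM of the 18 detected terpene synthase genes (1 point per library, log axis) in OE1 treated, OE1 untreated, ZH11 treated and ZH11 untreated, with the 9 mono- or sesquiterpene type genes above the line and the 9 diterpene type genes below it. LOC_Os04g27190 and LOC_Os03g22620 lie well to the right of the rest. LOC_Os12g30824 (KSL10), at 0.33 to 0.43 TPM in OE1 and 1.03 to 1.89 TPM in ZH11, met the level through ZH11 alone.

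The 14 genes of the mevalonate pathway differed little. Their summed level was 265 and 254 TPM in OE1 treated, 257 and 243 TPM in OE1 untreated, 251 and 315 TPM in ZH11 treated and 255 and 269 TPM in ZH11 untreated, so the groups overlapped. The first enzyme, acetyl-CoA acetyltransferase, had the largest fold of the pathway at LOC_Os01g02020, with 46.6 and 48.8 TPM in OE1 treated, 36.3 and 35.4 TPM in OE1 untreated, 63.9 and 75.5 TPM in ZH11 treated and 38.4 and 42.3 TPM in ZH11 untreated. Treated libraries were higher in both genotypes without overlap, with uncalled log2 folds of 0.40 ± 0.14 in OE1 and 0.77 ± 0.14 in ZH11 (limma adjusted p = 0.403 and 0.0991). The second acetyltransferase gene, LOC_Os09g07830, lay the other way in ZH11, with a log2 fold of -0.60 ± 0.16.

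LOC_Os09g31970, the most abundant gene of HMG-CoA reductase, the main control point of the pathway, had 47.5 and 39.9 TPM in OE1 treated, 39.9 and 34.3 TPM in OE1 untreated, 36.3 and 59.3 TPM in ZH11 treated and 42.4 and 36.5 TPM in ZH11 untreated, with a log2 fold for treatment of 0.23 ± 0.24 in each genotype. Without ZH11 treated replicate 2 the ZH11 fold of LOC_Os09g31970 was -0.11. The low HMG-CoA reductase gene LOC_Os02g48330 stayed under 1.5 TPM and had a log2 fold of 0.62 ± 0.29 for untreated OE1 over untreated ZH11. The leading genes of HMG-CoA synthase (LOC_Os08g43170), mevalonate kinase (LOC_Os10g18220), phosphomevalonate kinase (MSTRG.12234) and diphosphomevalonate decarboxylase (LOC_Os02g01920) had folds between -0.24 and 0.10 in all 4 comparisons. A further locus counted here, LOC_Os03g02720, carries the HMG-CoA synthase orthologue of its neighbour LOC_Os03g02710 in KEGG, but its best match is ataxin-10, so its place in the pathway is uncertain.

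The MEP pathway was the more abundant supply route. Its 10 genes summed to 516 and 445 TPM in OE1 treated, 551 and 544 TPM in OE1 untreated, 493 and 556 TPM in ZH11 treated and 571 and 598 TPM in ZH11 untreated. Treated sums were below untreated ones in each genotype, as the shoot marker sums were, and the part of the shoot markers in this was not tested. Of the 10 genes, 8 were lower without overlap for treatment in OE1 and 1 higher (28.6% and 23.8% of all genes), and 5 were lower and 1 higher for treatment in ZH11 (18.4% and 15.9%). None was called by limma, and 3 for OE1 treatment and 5 for ZH11 treatment had an unadjusted p under 0.05 (9.44% and 12.7% of all genes).

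DXS1 (LOC_Os05g33840), the main 1-deoxyxylulose phosphate synthase at the entry of the MEP pathway, had 69.3 and 60.5 TPM in OE1 treated, 78.7 and 71.9 TPM in OE1 untreated, 52.4 and 61.3 TPM in ZH11 treated and 80.6 and 79.2 TPM in ZH11 untreated. Treated libraries were below untreated ones in both genotypes, with log2 folds of -0.21 ± 0.15 in OE1 and -0.49 ± 0.15 in ZH11. The next enzyme, the reductoisomerase DXR (LOC_Os01g01710), had folds of -0.33 ± 0.16 in OE1 and -0.52 ± 0.16 in ZH11, and the cytidylyl transferase ISPD (LOC_Os01g66360) of -0.45 ± 0.25 in OE1 and -0.62 ± 0.25 in ZH11, the second being -0.21 without ZH11 treated replicate 2. The isoform DXS2 (LOC_Os07g09190), at 4.01 to 10.5 TPM, was also lower in treated libraries of both genotypes, with folds of -0.50 ± 0.21 in OE1 and -0.67 ± 0.21 in ZH11. The kinase ISPE (LOC_Os01g58790) and the last enzymes, ISPG (LOC_Os02g39160) and ISPH (LOC_Os03g52170), had uncalled treatment folds between -0.35 and 0.01. A further MEP gene, LOC_Os03g52180, missed the filter of 5 TPM in 2 libraries. Its log2 fold for OE1 over ZH11 was 0.69 in untreated plants, the highest of the backbone genes, and 0.22 under treatment. Its treatment fold was -0.60 in OE1, the lowest of the backbone genes, and -0.13 in ZH11, and it was not called.

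A further DXS match, LOC_Os06g05100, was the MEP gene higher without overlap in ZH11, with 32.3 and 27.8 TPM in OE1 treated, 28.2 and 28.8 TPM in OE1 untreated, 34.0 and 55.1 TPM in ZH11 treated and 28.8 and 29.8 TPM in ZH11 untreated. Its log2 folds were 0.07 ± 0.22 in OE1 and 0.55 ± 0.22 in ZH11, the second being 0.21 without ZH11 treated replicate 2, and none was called.

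ISPF (LOC_Os02g45660), the cyclodiphosphate synthase of the pathway, was the MEP gene higher without overlap for treatment in OE1. It had 44.3 and 46.2 TPM in OE1 treated, 30.8 and 31.6 TPM in OE1 untreated, 24.0 and 24.7 TPM in ZH11 treated and 28.8 and 25.0 TPM in ZH11 untreated. The OE1 treated libraries were the highest of the 8. OE1 over ZH11 under treatment had a log2 fold of 0.87 ± 0.14 with limma adjusted p = 0.0411, which passed the p threshold but not the fold threshold. The log2 fold for treatment was 0.52 ± 0.14 in OE1 and -0.13 ± 0.14 in ZH11, with a difference of 0.65 ± 0.19 (limma adjusted p = 0.567).

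Isopentenyl diphosphate isomerase, which balances the pair of building blocks, is encoded by genes that lay in opposite directions. LOC_Os05g34180 had 50.9 and 58.0 TPM in OE1 treated, 37.1 and 37.4 TPM in OE1 untreated, 38.4 and 44.0 TPM in ZH11 treated and 35.1 and 35.1 TPM in ZH11 untreated, higher under treatment in both genotypes. LOC_Os07g36190 had 73.3 and 74.2 TPM in OE1 treated, 84.8 and 78.5 TPM in OE1 untreated, 76.2 and 63.2 TPM in ZH11 treated and 95.5 and 99.5 TPM in ZH11 untreated, lower under treatment in both. The treatment folds were 0.53 ± 0.14 in OE1 and 0.22 ± 0.14 in ZH11 for the first and -0.14 ± 0.14 in OE1 and -0.48 ± 0.14 in ZH11 for the second, none called. Isopentenyl phosphate kinase (LOC_Os01g55890) lay at 17.5 to 22.9 TPM in all libraries.

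The 15 prenyl diphosphate synthase genes summed to 311 and 309 TPM in OE1 treated, 306 and 301 TPM in OE1 untreated, 273 and 311 TPM in ZH11 treated and 315 and 313 TPM in ZH11 untreated. LOC_Os07g39270, the geranylgeranyl diphosphate synthase that feeds chlorophyll, carotenoids and diterpenes in the plastid, had 68.3 and 62.3 TPM in OE1 treated, 51.5 and 53.6 TPM in OE1 untreated, 42.3 and 32.9 TPM in ZH11 treated and 55.8 and 42.3 TPM in ZH11 untreated. OE1 treated libraries were the highest, and the log2 fold for OE1 over ZH11 under treatment was 0.79 ± 0.19 (limma adjusted p = 0.131). The leading farnesyl diphosphate synthase (LOC_Os01g50760), solanesyl diphosphate synthase (LOC_Os05g50550), dehydrodolichyl diphosphate synthase (LOC_Os06g07120) and the geranyl or solanesyl type gene LOC_Os06g46450 had folds between -0.46 and 0.36 in the 4 comparisons. Of the 15 genes, 0 passed an unadjusted p of 0.05 for treatment in either genotype.

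Among the 16 genes of prenyl chain use, LOC_Os03g08624 stood out. It is listed in KEGG as farnesol dehydrogenase, which oxidises farnesol to farnesal, while its best Swiss-Prot match is a dihydroflavonol reductase. It had 34.8 and 49.4 TPM in OE1 treated, 14.6 and 16.4 TPM in OE1 untreated, 46.8 and 47.7 TPM in ZH11 treated and 25.9 and 18.3 TPM in ZH11 untreated. Treated libraries were above untreated ones in both genotypes, with log2 folds of 1.37 ± 0.22 in OE1 (limma adjusted p = 0.0717) and 1.08 ± 0.22 in ZH11 (limma adjusted p = 0.134), neither called. With only the 4 OE1 libraries in the fit, the OE1 value passed (limma adjusted p = 0.011, with a range of 0.011 to 0.648 over all alternatives). The authors' deposited table lists the gene as up in OE1 treatment (1.005).

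The most abundant member of all was LOC_Os02g51080, the geranylgeranyl reductase CHLP, which makes the phytyl chain of chlorophyll and tocopherol. It had 296 and 251 TPM in OE1 treated, 348 and 331 TPM in OE1 untreated, 226 and 221 TPM in ZH11 treated and 370 and 306 TPM in ZH11 untreated. The treated libraries were the lower ones in both genotypes, like the shoot markers, with uncalled folds of -0.32 ± 0.15 in OE1 and -0.59 ± 0.15 in ZH11. The farnesyltransferase subunits, which attach farnesyl chains to proteins, lay higher under treatment in both genotypes (LOC_Os01g53600 and LOC_Os09g33930), with folds between 0.23 and 0.30. Over the 58 backbone genes, 15 were higher and 23 lower without overlap for treatment in OE1 (23.8% and 28.6% of all genes), and 8 higher and 15 lower for treatment in ZH11 (15.9% and 18.4%). The median folds were -0.04 in OE1 and -0.09 in ZH11. Of these genes, 5 (8.62%) were higher and 9 (15.5%) lower without overlap in both genotypes, beside 6.38% and 8.5% of all genes tested.

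Gibberellin enzymes without a synthase domain, 13 genes, summed to 285 and 257 TPM in OE1 treated, 243 and 240 TPM in OE1 untreated, 261 and 261 TPM in ZH11 treated and 241 and 228 TPM in ZH11 untreated. The sums were higher in treated than in untreated libraries in both genotypes. LOC_Os06g37364, matched to ent-kaurene oxidase, the first oxidation after kaurene, had 96.4 and 83.0 TPM in OE1 treated, 62.7 and 63.0 TPM in OE1 untreated, 76.2 and 82.0 TPM in ZH11 treated and 62.3 and 58.7 TPM in ZH11 untreated. The next enzyme, ent-kaurenoic acid oxidase (LOC_Os06g02019), had 61.1 and 54.1 TPM in OE1 treated, 51.2 and 49.4 TPM in OE1 untreated, 63.8 and 61.2 TPM in ZH11 treated and 43.3 and 51.0 TPM in ZH11 untreated. Both genes had treated libraries above untreated ones in both genotypes without overlap. Their uncalled folds were 0.50 ± 0.14 and 0.19 ± 0.14 in OE1 and 0.38 ± 0.14 and 0.40 ± 0.14 in ZH11.

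The oxidases that finish or remove active gibberellin varied among themselves. LOC_Os05g34854, a match to the gibberellin 20-oxidase GA20ox2, had 8.52 and 8.07 TPM in OE1 treated, 3.24 and 4.08 TPM in OE1 untreated, 6.94 and 6.72 TPM in ZH11 treated and 5.44 and 2.65 TPM in ZH11 untreated. Its log2 fold for treatment was 1.002 ± 0.28 in OE1 (limma adjusted p = 0.247) and 0.69 ± 0.28 in ZH11. With only the 4 OE1 libraries in the fit, the OE1 value passed (limma adjusted p = 0.0166, with a range of 0.0166 to 1.0 over all alternatives). The second GA20ox2 match, LOC_Os01g66100, had 7.94 and 8.70 TPM in OE1 treated, 4.16 and 3.84 TPM in OE1 untreated, 4.79 and 5.78 TPM in ZH11 treated and 5.37 and 4.93 TPM in ZH11 untreated, with a fold of 0.90 ± 0.17 in OE1 and 0.03 ± 0.17 in ZH11. The authors' deposited table lists both as up in OE1 treatment, with log2 folds of 1.22 for LOC_Os05g34854 and 1.10 for LOC_Os01g66100.

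The 3-oxidase LOC_Os01g08220, which makes the active hormone, had 3.65 and 2.11 TPM in OE1 treated, 1.27 and 0.95 TPM in OE1 untreated, 1.43 and 0.98 TPM in ZH11 treated and 1.91 and 1.26 TPM in ZH11 untreated. Its OE1 treated libraries were above the other 6. The inactivating 2-oxidase LOC_Os05g06670 lay the other way in OE1, with 10.7 and 11.3 TPM in OE1 treated and 21.4 and 22.3 TPM in OE1 untreated, against 8.34 and 15.6 TPM in ZH11 treated and 17.1 and 11.8 TPM in ZH11 untreated. The treatment folds in OE1 were 0.85 ± 0.28 and -0.93 ± 0.29, neither called. A further 2-oxidase, LOC_Os05g43880, near the detection threshold at 0.30 to 1.51 TPM, had a difference of treatment effects of -1.07 ± 0.38. The most abundant 2-oxidase (LOC_Os01g55240), the most abundant 20-oxidase (LOC_Os03g63970) and the P450 CYP714B2 (LOC_Os03g21400) had uncalled folds between -0.22 and 0.14 in the 4 comparisons.

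Diterpenoid phytoalexin enzymes, 13 genes without a synthase domain, summed to 60.9 and 58.2 TPM in OE1 treated, 83.9 and 83.3 TPM in OE1 untreated, 71.9 and 82.8 TPM in ZH11 treated and 90.4 and 96.4 TPM in ZH11 untreated. Every treated sum was below every untreated sum of the same genotype. The only called gene among them, LOC_Os09g15050, had 1.49 and 1.75 TPM in OE1 treated, 1.87 and 1.70 TPM in OE1 untreated, 4.98 and 5.87 TPM in ZH11 treated and 3.69 and 5.12 TPM in ZH11 untreated. All 4 OE1 libraries were below all 4 ZH11 libraries. OE1 was lower than ZH11 under treatment by a called log2 fold of -1.29 ± 0.21 (limma adjusted p = 0.0466), where 0.154% of all genes tested were called lower and 0.953% in either direction. In untreated plants the fold was -0.94 ± 0.21 (limma adjusted p = 0.259). LOC_Os09g15050 is not among the genes that the authors' deposited tables list as called, in any comparison.

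LOC_Os09g15050 is matched to CPS4 but carries no terpene synthase domain and is 1122 nt long, against 2800 nt for LOC_Os04g09900, the other CPS4 match. Reads could be divided between such relatives in a way the deposited values do not show. The call was lost in 14 of 19 alternative analyses, among them the omission of ZH11 treated replicate 2 (log2 fold -1.19, limma adjusted p = 0.0846), of either OE1 treated library (limma adjusted p = 0.343 and 0.347), of either ZH11 untreated library (0.0632 and 0.063) and of either OE1 untreated library (0.137 and 0.138).

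The cluster on chromosome 2, whose products include phytocassanes, had 11 members by annotation and 7 that met the level. CPS2 (LOC_Os02g36210), the ent-copalyl diphosphate synthase that starts these pathways, had 1.43 and 1.19 TPM in OE1 treated, 2.41 and 2.83 TPM in OE1 untreated, 4.11 and 4.5 TPM in ZH11 treated and 3.06 and 4.56 TPM in ZH11 untreated. Its successor KSL7 (LOC_Os02g36140), the cassadiene synthase, had 2.31 and 1.74 TPM in OE1 treated, 5.44 and 4.35 TPM in OE1 untreated, 4.42 and 4.14 TPM in ZH11 treated and 3.68 and 6.16 TPM in ZH11 untreated. In both genes OE1 treated was below the other 3 groups. CYP71Z7 (LOC_Os02g36190), a cassadiene hydroxylase, had 3.01 and 3.25 TPM in OE1 treated, 5.01 and 4.57 TPM in OE1 untreated, 7.77 and 8.35 TPM in ZH11 treated and 6.05 and 9.05 TPM in ZH11 untreated.

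Over the 7 detected genes of this cluster, the log2 folds for treatment in OE1 ran from -0.99 to -0.06 with a median of -0.65, and 6 of 7 were lower without overlap (28.6% of all genes). In ZH11 they ran from -0.68 to 0.16 with a median of 0.07, and 1 of 7 was lower without overlap (18.4%). That median was -0.09 without ZH11 treated replicate 2 and -0.15 without ZH11 untreated replicate 1. In untreated plants the folds of OE1 over ZH11 ran from -0.93 to 0.72, with a median of -0.37. There 3 of 7 were lower and 2 higher without overlap (19.6% and 21.7%), and 3 had an unadjusted p under 0.05 (4.94%). The untreated median was -0.04 without ZH11 untreated replicate 2. For OE1 over ZH11 under treatment all 7 were lower without overlap (19.3%), with a median of -0.81. CPS2 had the largest fold there, -1.20 ± 0.22 (limma adjusted p = 0.0657), followed by CYP71Z7 at -1.13 ± 0.21 (limma adjusted p = 0.0664), and none of the 7 was called by limma in any comparison. An unadjusted p under 0.05 was reached by 4 of 7 for treatment in OE1 (9.44% of all genes), 1 for treatment in ZH11 (12.7%), 4 for OE1 over ZH11 under treatment (15.1%) and 3 for the difference between those treatment effects (6.45%). OE1 treatment, OE1 over ZH11 under treatment and the difference of effects all use the OE1 treated libraries, so these counts are not independent. For OE1 treatment the median was -0.60 without OE1 treated replicate 1 and -0.57 without replicate 2. For OE1 over ZH11 under treatment it was -0.95 and -0.65. Genes of this cluster are also counted among the diterpene synthases and phytoalexin enzymes above. CYP76M6 (LOC_Os02g36280), the oryzalexin E synthase, had the largest difference of treatment effects, -1.14 ± 0.37 (limma adjusted p = 0.621). With the length gradient removed, the cluster median was -0.56 for OE1 treatment and -0.50 for OE1 over ZH11 under treatment, where it was -0.54 without ZH11 treated replicate 2. The authors' deposited table lists KSL7 (LOC_Os02g36140, -1.25) and CYP76M6 (LOC_Os02g36280, -1.53) as down in OE1 treatment CPS2 (LOC_Os02g36210, -1.68) as down in treated OE1 over treated ZH11, and the dolabradiene synthase match LOC_Os02g36020 (-1.62) as down in untreated OE1 over untreated ZH11.

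**Figure D4:**
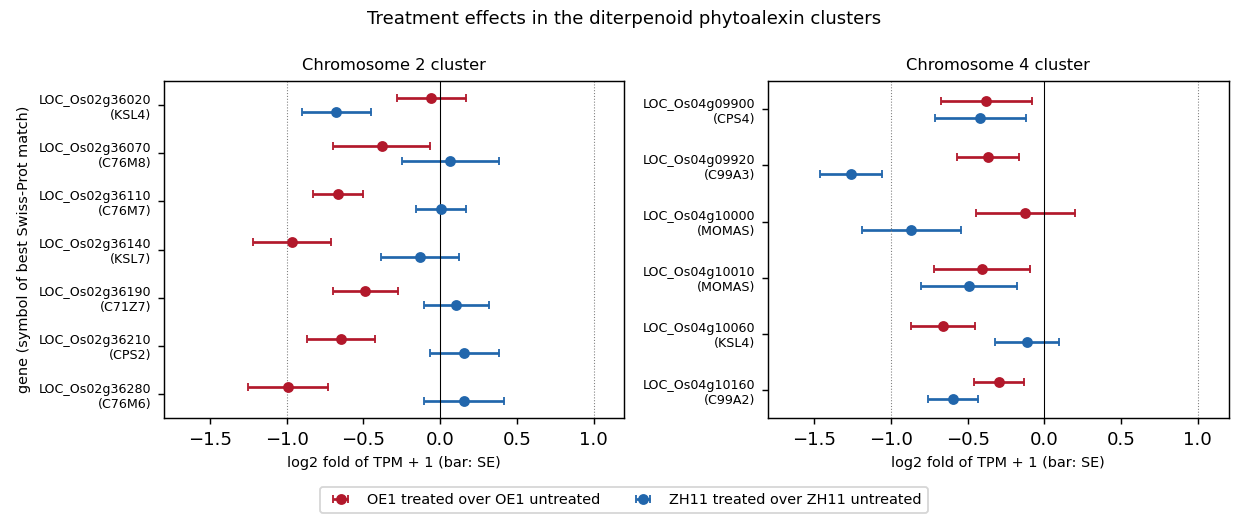
Log2 fold for 2-nitroaniline in OE1 (red) and in ZH11 (blue), with SE bars, for the 7 detected members of the chromosome 2 cluster and the 6 of the chromosome 4 cluster. In the chromosome 2 cluster the OE1 folds lie between -0.99 and -0.06 and the ZH11 folds between -0.68 and 0.16; in the chromosome 4 cluster all folds are below 0 in both genotypes.

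The momilactone cluster on chromosome 4 had 6 members, all of which met the level. CYP99A3 (LOC_Os04g09920), which oxidises pimaradiene, had 9.43 and 7.22 TPM in OE1 treated, 10.4 and 11.4 TPM in OE1 untreated, 5.26 and 7.20 TPM in ZH11 treated and 15.6 and 16.8 TPM in ZH11 untreated. Treated libraries were below untreated ones in both genotypes, with log2 folds of -0.36 ± 0.20 in OE1 and -1.26 ± 0.20 in ZH11 (limma adjusted p = 0.718 and 0.0708). Without ZH11 treated replicate 2 the ZH11 fold was -1.46 and passed (limma adjusted p = 0.0242, with a range of 0.00782 to 0.867 over all alternatives). The authors' deposited table lists it as down in ZH11 treatment (-1.43). Momilactone A synthase at LOC_Os04g10000 had 6.19 and 5.91 TPM in OE1 treated, 7.48 and 5.97 TPM in OE1 untreated, 7.25 and 3.01 TPM in ZH11 treated and 9.78 and 9.22 TPM in ZH11 untreated.

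All 6 treatment folds of this cluster were negative in each genotype. In OE1 they had a median of -0.37, with 5 lower without overlap (28.6% of all genes), and in ZH11 a median of -0.54, with 3 lower without overlap (18.4%). The OE1 median was -0.23 without OE1 treated replicate 2. In ZH11 4 of 6 folds were negative without ZH11 treated replicate 1 and 5 of 6 without replicate 2, and in OE1 5 of 6 without OE1 untreated replicate 1. For OE1 over ZH11 under treatment the median was 0.26, with 1 lower and 2 higher without overlap (19.3% and 23%). It was -0.05 without ZH11 treated replicate 2, with 3 of 6 folds negative, 0.03 with the read-length term and 0.14 with the length gradient removed, so no direction held there. None of the 6 was called by limma, and 1 for OE1 treatment and 3 for ZH11 treatment had an unadjusted p under 0.05 (9.44% and 12.7% of all genes). Outside the clusters, the CYP76M7 match LOC_Os06g39780 had 7.93 and 8.18 TPM in OE1 treated, 13.4 and 12.1 TPM in OE1 untreated, 11.8 and 20.3 TPM in ZH11 treated and 12.1 and 11.2 TPM in ZH11 untreated, with a difference of treatment effects of -0.99 ± 0.34. That difference was -0.62 without ZH11 treated replicate 2, and the ZH11 treatment fold was then 0.02, against 0.39 with all libraries. The kaurene oxidase-like gene LOC_Os06g37224 had a difference of 1.05 ± 0.32 at levels of 0.66 to 2.83 TPM, and CYP71Z6 (LOC_Os02g32770) had treatment folds of -0.82 ± 0.30 in OE1 and -0.79 ± 0.30 in ZH11. CYP701A8 (LOC_Os06g37300) had folds between -0.10 and -0.08 in all 4 comparisons.

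The 11 triterpene enzymes summed to 183 and 176 TPM in OE1 treated, 201 and 211 TPM in OE1 untreated, 177 and 189 TPM in ZH11 treated and 213 and 219 TPM in ZH11 untreated, lower under treatment in both genotypes. LOC_Os11g18366, an oxidosqualene cyclase matched to achilleol B synthase, had 7.93 and 9.11 TPM in OE1 treated, 13.4 and 13.99 TPM in OE1 untreated, 4.30 and 6.53 TPM in ZH11 treated and 14.3 and 15.5 TPM in ZH11 untreated. Its log2 fold was -0.63 ± 0.20 for treatment in OE1 and -1.33 ± 0.20 for treatment in ZH11 (limma adjusted p = 0.344 and 0.0624), neither called. Without ZH11 treated replicate 2 the ZH11 fold was -1.59 and passed (limma adjusted p = 0.0113, with a range of 0.00415 to 0.867 over all alternatives). The authors' deposited table lists LOC_Os11g18366 as down in ZH11 treatment (-1.56).

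LOC_Os11g08569, matched to parkeol synthase, had 14.8 and 14.7 TPM in OE1 treated, 20.6 and 22.1 TPM in OE1 untreated, 9.50 and 12.7 TPM in ZH11 treated and 18.5 and 15.9 TPM in ZH11 untreated, with uncalled treatment folds of -0.50 ± 0.18 in OE1 and -0.60 ± 0.18 in ZH11. Squalene synthase (LOC_Os03g59040), squalene monooxygenase (LOC_Os03g12910) and the cyclase LOC_Os06g28820 had folds between -0.38 and 0.25. The 7 dehydrogenases of the monoterpenoid map, orthologues of neomenthol dehydrogenase by KEGG with best matches to salutaridine reductase of a poppy in 6 of them, had a role in rice that is not annotated here. The most abundant, LOC_Os02g42810, had folds between -0.16 and -0.11, and all 7 folds were negative for untreated OE1 over untreated ZH11.

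The neighbouring pathways that use the same chains had no gene called by limma in any comparison, with 31 carotenoid, 18 brassinosteroid, 47 terpenoid-quinone and 26 steroid genes tested. At an unadjusted p under 0.05, the most that passed were 15 terpenoid-quinone genes for treatment in OE1 (9.44% of all genes). Of the 18 brassinosteroid genes, 11 were lower and 1 higher without overlap for treatment in OE1 (28.6% and 23.8% of all genes), and 3 were lower and 6 higher for treatment in ZH11 (18.4% and 15.9%). In untreated OE1 over untreated ZH11, a comparison that shares the OE1 untreated libraries with the first, 0 were lower and 10 higher (19.6% and 21.7%). Their median log2 folds were -0.22 for treatment in OE1, -0.01 for treatment in ZH11 and 0.20 in untreated plants.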

How the data were processed

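RNA levels were measured in 8 libraries of whole rice seedlings, in 4 groups of 2 taken from the labels. The expression matrix held TPM as deposited by the authors. For genes the authors called, their deposited tables held estimated counts, a log2 fold change and p-values, and these were used for the authors' calls alone. The deposited alignment and trimming tables gave the count of reads, the read length and the percent of GC per library, per the file headers. TPM keeps no read depth, so precision rests on the spread of replicates. Cufflinks 2.2.1 is named in the submitters' processing notes. The aligner, the counter, the strand setting, the test and the genome build are not given in the sources used here. A line of the matrix had been emptied before use.

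Tests covered the 25281 genes that reached 1 TPM in 2 or more of the 8 libraries. On log2(TPM + 1), limma fitted 4 group means with an eBayes trend, with contrasts for treatment in each genotype, genotype in each condition and the difference of the treatment effects. Called genes had a Benjamini-Hochberg adjusted p under 0.05 and a log2 fold of 1 or more in size. The call was run on simulated data with independent noise per gene, no outlying library and no length gradient, so that run cannot judge their effects. No count model was used because counts were deposited only for called genes. Roles came from KEGG orthologues and names from best Swiss-Prot matches in the matrix, which need not be the gene itself. Members and lists were chosen with earlier results of these data known. Named genes are the called members, terpene synthases with a group mean of at least 5 TPM, the most abundant gene of each enzyme step, and the 3 largest folds in each direction per comparison. A few others, named for the authors' calls or a role, were chosen after their values were seen. Alternatives were rescaling by median ratios, pseudocounts of 0.1 and 5, other filters, the 4 compared libraries alone, no trend, no fold threshold, a replicate block, removal of the length gradient, a read-length term and each library left out. The supplied gene table could not be matched to the locus identifiers, so no sequences or coordinates are given. Fits ran in limma 3.58.1 under R 4.3.3. Tables and figures were made in Python 3.11.15, using numpy 2.4.6, pandas 2.3.3 and, for plots, matplotlib 3.10.9.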

Additional observations from a re-analysis of the deposited data

Results flagged for a closer look

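In 6 members the treated libraries lay on opposite sides of the untreated ones in OE1 and ZH11, with no overlap in either genotype. That is 5% of the 120, beside 4.81% of all 25281 genes tested (1216 genes), a share near the background. None of the differences between the treatment effects passed the adjusted threshold. LOC_Os04g27670, the tau-cadinol synthase match described above, had the largest difference at 2.24 on the log2 scale (limma adjusted p = 0.13), higher under treatment in OE1 and lower in ZH11.

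The geranylgeranyl diphosphate synthase LOC_Os07g39270 had a difference of 0.68 (limma adjusted p = 0.733). The MEP pathway enzyme ISPF (LOC_Os02g45660) had 0.65 (limma adjusted p = 0.567), the zingiberene synthase match LOC_Os08g07100 had 0.60 (limma adjusted p = 0.805), and the geranylgeranyl reductase match LOC_Os01g16020 had 0.53 (limma adjusted p = 0.805). In these 4 genes treated OE1 was the higher group in OE1 and treated ZH11 the lower group in ZH11. The prenylcysteine methylesterase match LOC_Os06g49440 lay the other way, with a difference of -0.52 (limma adjusted p = 0.781). LOC_Os08g07100 is close to the detection threshold, at 0.38 to 1.14 TPM. In LOC_Os07g39270 and ISPF the closest treated and untreated ZH11 libraries nearly met, as the TPM given above show.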

How the results depend on the processing

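Of 600 pairs of a member and a comparison, 568 were called in no analysis, 32 were called in at least 1, and 0 changed direction while called under any of 19 alternatives. The number of members called depended on the ZH11 treated libraries. For treatment in ZH11 it was 0 as reported, 3 with median-of-ratios rescaling, 5 with the length gradient removed, 5 with a read-length term, and 0 to 11 with a library left out (11 without ZH11 treated replicate 1, where 10.4% of all genes were called, and 4 without replicate 2, where 0.676% were). For treatment in OE1 it was 0 as reported, 2 with only the 4 libraries compared, 2 with the length gradient removed, 1 with the read-length term and 0 to 1 with a library left out. In untreated plants the 2 genotype calls became 1 with a pseudocount of 0.1 or 5, no filter, a filter of 5 TPM, only 4 libraries or the read-length term, and ranged from 0 to 2 with a library left out. Under treatment the 1 genotype call became 0 with either pseudocount, either filter, 4 libraries or the read-length term, 2 without the trend, without the fold threshold or with the length gradient removed, and 0 to 6 with a library left out (6 without ZH11 treated replicate 1, where 15.2% of all genes were called). For the difference of the treatment effects the count was 0 as reported, 1 with the length gradient removed and 0 to 9 with a library left out (9 without ZH11 treated replicate 1, where 10.7% of all genes were called). As shares of the 120 members, those counts without ZH11 treated replicate 1 were below the shares of all genes. The cause of these shifts was not tested. Where a group was left with 1 library, that library was assumed to vary like the other groups.

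The replicate numbers are shared by the groups in the labels, but only 2 pairs stand behind each comparison and the labels do not say what a number marks. The correlation of replicate deviations between groups ran from -0.28 to 0.233. With a replicate block, 1 member was called between the untreated genotypes and 0 between the treated ones, and the other counts were unchanged at 0.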
